A study of Mus musculus with 12 samples.

Results

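The transcripts of 7 receptors for somatostatin, opioid and galanin peptides were followed in the hypothalamus of mice with and without floxed Stat3 in leptin receptor cells. They are the somatostatin receptor genes Sstr1, Sstr2 and Sstr3, the mu opioid receptor gene Oprm1, the kappa opioid receptor gene Oprk1, the nociceptin receptor gene Oprl1 and the galanin receptor gene Galr1. The members were chosen by name, with earlier results of these data known. All 7 were found among the 52638 entries of the count table and passed the filter on low counts in every comparison. Control mice (Ctrl) were adults homozygous for LepRb-Cre (LepRb-Cre/Cre) and for a tag at the Rosa26 locus (R26-GFP:L10a/GFP:L10a), in which cells that express the long leptin receptor, LepRb, carry a ribosomal protein fused to green fluorescent protein. Stat3KO mice were adults that carried the same 2 alleles and Stat3-flox/flox. In both genotypes the Cre and the tag are homozygous, and the tag stays on in any cell that has once expressed Cre. The hypothalamus was cut as a cube 3 mm wide, and tissue of 5 to 8 mice made up each replicate. Libraries of a genotype with the same number were taken as 1 pool, which gave a bead-bound library, the RNA on tagged ribosomes of LepRb cells, and a supernatant library, the RNA left after the pull-down, so that 6 pools gave 12 libraries in 4 groups of 3. The labels name neither sex nor leptin treatment. Each group has n = 3 pools, and p-values of the main tests measure the spread between the libraries of a group. Those tests do not use the pairing of the 2 libraries of a pool. A fit with the pool as a block is given as an alternative. Reads carry no molecular identifiers.

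These receptors are G protein-coupled receptors of the Gi/o class. When a peptide binds, they inhibit adenylyl cyclase, open G protein-gated potassium channels and close calcium channels, and so tend to quiet the neuron that carries them. In the hypothalamus somatostatin restrains growth hormone release, dynorphin and enkephalin modulate feeding and reproductive neurons, nociceptin acts on arcuate neurons, and galanin is made by a group of LepRb neurons in the lateral hypothalamus. STAT3 is a transcription factor that the activated leptin receptor phosphorylates, and by its title the study concerns its transcriptional role in leptin action.

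Total counts ranged from 20743217 to 41829907 per library. Stat3, the floxed gene, stood at 114 to 160 CPM (counts scaled to library size) on Stat3KO beads and 144 to 179 CPM on Ctrl beads; a count over the whole gene leaves the deleted exons unresolved. The tag transcript Gfp_L10a was at 82.4 to 164.5 CPM in bead-bound and 7.39 to 15.3 CPM in supernatant libraries. Summed oligodendrocyte markers (8 of 8 present) were at 1670 to 3000 CPM on the beads and 4500 to 6860 CPM in the supernatant, lower on the beads but not at 0. Summed endothelial markers (8 of 8 present) reached 54.4 to 134 CPM on Ctrl beads and 16.1 to 143 CPM on Stat3KO beads, against 18.3 to 24.1 CPM in the supernatants; their part in the results was not tested. Replicate 1 stood apart in each group: its chi-square per gene against replicates 2 and 3 was 25.1 to 75.5, and that between replicates 2 and 3 was 5.91 to 16.0. For the 7 receptors and the other receptors and ligands of their families, calls that change without replicate 1 are given both ways. The fit of replicates 2 and 3 alone was chosen after seeing the data. These 2 replicates lie closer to each other, so the adjusted p of that fit can be too small.

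**Figure D1:**
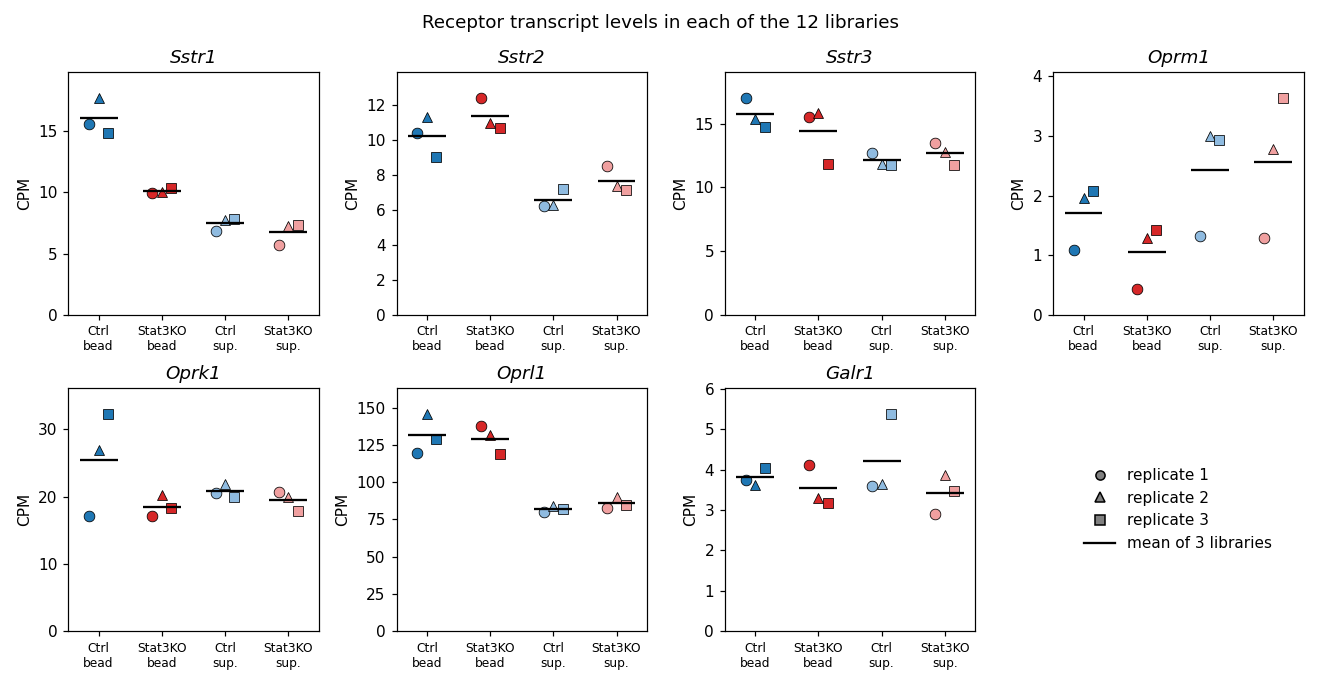
CPM of each receptor transcript (vertical axes, linear from 0) in the 12 libraries, by group; symbols mark the replicates and bars the means of 3 libraries. Sstr1, Sstr2 and Oprl1 lie higher in every bead-bound library than in every supernatant library of the same genotype, and Oprm1 is lowest in replicate 1 of each group.

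Between genes, levels were compared per kilobase of exon, as CPM per kb. Oprl1 was the most abundant of the 7 in each of the 4 groups, at 35.1 ± 3.48 CPM per kb (SD) in Ctrl bead-bound RNA, and Oprm1 the least abundant, at 0.212 ± 0.0672. Between them in Ctrl bead-bound RNA stood Sstr1 (7.85 ± 0.721 CPM per kb), Sstr2 (4.77 ± 0.534), Sstr3 (3.64 ± 0.271), Oprk1 (2.78 ± 0.843) and Galr1 (1.27 ± 0.0708). Only Sstr3 and Oprk1 were neighbours whose libraries overlapped there, so the order of these 2 was not resolved. In Ctrl supernatant the order was the same, with Oprl1 at 21.8 ± 0.551 CPM per kb, but the libraries of Sstr1 (3.64 ± 0.269), Sstr2 (3.07 ± 0.248) and Sstr3 (2.81 ± 0.119) overlapped from neighbour to neighbour. In Stat3KO bead-bound RNA Sstr2 (5.29 ± 0.432 CPM per kb) stood above Sstr1 (4.94 ± 0.0967), again with overlapping libraries. The length used decides the middle of this order: with the longest annotated transcript of each gene in place of all exons, Oprk1 rose to the third place in Ctrl bead-bound RNA and to the second place in Ctrl supernatant, while Oprl1 stayed first and Oprm1 last in each group.

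**Figure D2:**
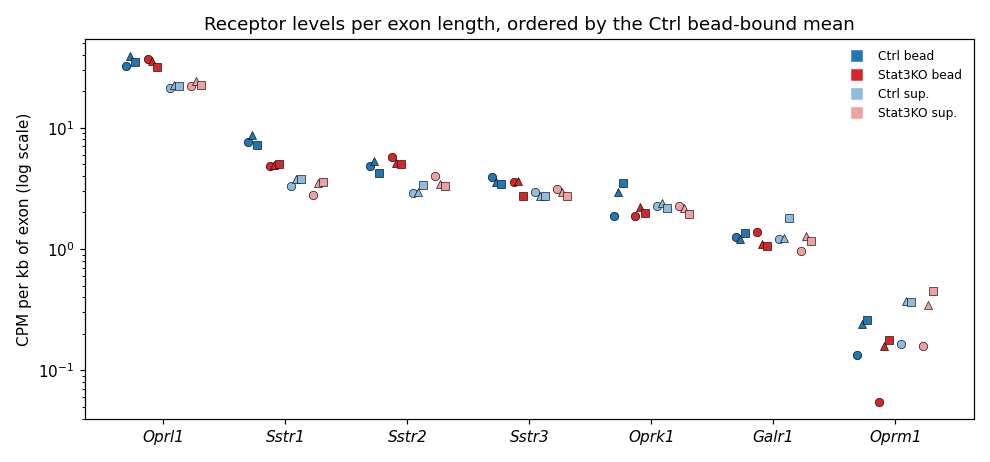
CPM per kb of exon (vertical axis, log scale) of the 7 receptors in every library, coloured by group and ordered by the Ctrl bead-bound mean, with circles, triangles and squares for replicates 1, 2 and 3. Oprl1 is highest and Oprm1 lowest in every library.

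Promoter windows of 300 bases, from 250 before to 50 after a transcript start, were taken from RefSeq (GRCm38.p6). Sstr1, Oprk1 and Galr1 were not part of this search. The 9 windows used belonged to 4 of the receptors, Sstr2, Sstr3, Oprm1 and Oprl1. They were searched for the letters TTCNNNGAA, the core that STAT proteins bind, and for TGACGTCA, the cAMP response element that CREB binds; each reads the same on both strands, and these 2 do not overlap. The first was in 1 of the 9 windows, across the Oprl1 start that lies farthest downstream, its first base 6 bases before it, and in 8.30% of all 32851 windows. The second was in 1 of the 9, its first base 58 bases before the Sstr2 start, and in 1.79% of all. A match is a run of letters and no evidence of binding. The stretches around both are shown, since Stat3 is the floxed gene and cAMP is the second messenger these receptors lower; capitals mark the motif, on the plus strand.
Oprl1 (chr2:181715674-181715702): ctgtgtcctgTTCCAGGAActgtactgag
Sstr2 (chr11:113619243-113619302): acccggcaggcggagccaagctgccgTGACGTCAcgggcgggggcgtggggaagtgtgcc

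Bead-bound against supernatant RNA asks which receptor transcripts are more abundant on the ribosomes of LepRb cells than in the rest of the tissue. In Ctrl mice all 3 somatostatin receptors and the nociceptin receptor were higher on the beads, and in Stat3KO mice Sstr1, Sstr2 and Oprl1 were. Of the 7 receptors 4 were called higher and 0 lower in Ctrl by edgeR (0 lower also by DESeq2 and at an unadjusted p under 0.05), where 20.7% of 18036 tested genes were higher, 21.2% lower and 41.9% either. The fractions of these 4 did not overlap, which held with the bead-bound side higher for 26.1% of genes. In Stat3KO 3 were called higher and 0 lower (1 lower, Oprm1, by DESeq2 and at an unadjusted p under 0.05), where 14.7% of 18107 genes were higher, 17.3% lower and 32.1% either; the fractions of these 3 did not overlap, as for 23.9% of genes. With the pool as a block 4290 genes were higher and 4709 lower in Stat3KO, against 2669 and 3135 without it. The median log2 fold change of the 7 was 0.381 in Ctrl and 0.171 in Stat3KO, beside -0.00676 and -0.0216 over all tested genes. Of 8 general neuron markers 3 were called higher and 0 lower in Ctrl by edgeR, Stmn2, Elavl4 and Tubb3 (median of the 8, 0.234). In Stat3KO 2 were higher and 0 lower, Stmn2 and Tubb3 (median 0.146). The part of neurons in general in the receptor results was not tested. A higher level on the beads can come from more cells of a type or from more RNA per cell, which bulk RNA cannot tell apart. The fractions differ in the kind of RNA too, ribosome-bound on the beads and the remainder in the supernatant. The part of this in the results was not tested.

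Sstr1 encodes a somatostatin receptor known from arcuate and periventricular neurons (ENSMUSG00000035431; GRCm38 chromosome 12, 58211772 to 58214444). Replicates 1, 2 and 3 held 15.6, 17.7 and 14.9 CPM on Ctrl beads and 6.82, 7.76 and 7.79 CPM in their supernatants. All 3 Stat3KO bead libraries fell between 9.97 and 10.3 CPM, and their supernatants held 5.70, 7.21 and 7.35 CPM. Every bead-bound library lay above every supernatant library of its genotype. The log2 fold change was 1.11 (SE 0.136, adjusted p = 0.000728) in Ctrl, the largest of the 7, and 0.57 (SE 0.161, adjusted p = 0.0244) in Stat3KO. The Ctrl call held under all 13 alternatives. In Stat3KO it did not pass without bead-bound replicate 3 (adjusted p = 0.0681), without Stat3KO supernatant replicate 1, 2 or 3 (0.0635, 0.0650 and 0.0535) and with library totals as the scale (0.0525).

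Sstr2 encodes the somatostatin receptor that binds most of the clinically used somatostatin analogues (ENSMUSG00000047904; chromosome 11, 113619342 to 113626028). Ctrl beads held 10.4, 11.3 and 9.02 CPM of it and Ctrl supernatants 6.24, 6.30 and 7.19 CPM. Stat3KO beads held 12.4, 10.95 and 10.7 CPM and their supernatants 8.51, 7.35 and 7.12 CPM. The fractions did not overlap in either genotype, with log2 fold changes of 0.64 (SE 0.153, adjusted p = 0.0111) in Ctrl and 0.55 (SE 0.153, adjusted p = 0.0226) in Stat3KO. The Ctrl call was lost without Ctrl supernatant replicate 2 (adjusted p = 0.0558), and the Stat3KO call without Stat3KO supernatant replicate 2 or 3 (0.0925 and 0.0856) and with library totals (0.0501). The gene lies within Slc39a11 on the opposite strand, with 0 shared exonic bases.

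Sstr3 encodes the somatostatin receptor found on the primary cilium of neurons (ENSMUSG00000044933; chromosome 15, 78537008 to 78544685). Ctrl beads measured 17.02, 15.4 and 14.75 CPM and Ctrl supernatants 12.7, 11.9 and 11.8 CPM. Stat3KO beads measured 15.5, 15.8 and 11.8 CPM and their supernatants 13.5, 12.8 and 11.7 CPM, so that the fractions overlapped only in Stat3KO. The log2 fold change was 0.38 (SE 0.124, adjusted p = 0.0372) in Ctrl and 0.17 (SE 0.158, adjusted p = 0.430) in Stat3KO. The Ctrl call was lost without Ctrl bead-bound replicate 1 or 2 (adjusted p = 0.0623 and 0.0805), without Ctrl supernatant replicate 1, 2 or 3 (0.0606, 0.132 and 0.104), with library totals (0.192) and without the filter on low counts (0.0546).

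Oprl1 encodes the receptor of nociceptin, which resembles the opioid receptors but binds classical opioids poorly (ENSMUSG00000027584; chromosome 2, 181715016 to 181720985). Its levels on Ctrl beads were 119.9, 146 and 129 CPM, with 79.7, 83.9 and 82.2 CPM in the supernatants. Those on Stat3KO beads were 137.5, 132 and 119 CPM, with 82.4, 90.2 and 84.8 CPM in the supernatants. The bead-bound libraries of both genotypes lay above all 6 supernatant libraries. The log2 fold change was 0.69 (SE 0.101, adjusted p = 0.00148) in Ctrl and 0.58 (SE 0.115, adjusted p = 0.00582) in Stat3KO, and it was called under all 13 alternatives in each genotype, with adjusted p up to 0.0131 and 0.0299.

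Oprm1 encodes the mu opioid receptor, the main target of morphine and of beta-endorphin (ENSMUSG00000000766; chromosome 10, 6758506 to 7038198). It had few reads, 14 to 123 per library. Ctrl beads held 1.08, 1.96 and 2.07 CPM and Ctrl supernatants 1.33, 3.00 and 2.94 CPM. Stat3KO beads held 0.440, 1.29 and 1.43 CPM and their supernatants 1.29, 2.77 and 3.64 CPM. In each group replicate 1 was the lowest library, and in each of the 6 pools the bead-bound level was below the supernatant level. The log2 fold change was -0.51 (SE 0.360, adjusted p = 0.276) in Ctrl and -1.27 (SE 0.475, adjusted p = 0.0666) in Stat3KO. With the pool as a block the Stat3KO value was -1.32 and passed (adjusted p = 0.00102), as it did with DESeq2 (0.0275), with all 12 libraries in the fit (0.0471), without the low count filter (0.00121), without Stat3KO supernatant replicate 1 (0.0313) and with replicates 2 and 3 alone (0.00184). In Ctrl it did not pass under any of 13 alternatives. Of its exonic bases 96 are shared with Ipcef1 on the opposite strand, which stood at 17.6 to 22.4 CPM over all libraries, and the counts are not stated to use the strand. Summed striatum and cortex markers (9 of 9 present) were at 319 to 415 CPM on the beads and 547 to 667 CPM in the supernatant of Ctrl, and at 188 to 439 and 238 to 645 CPM in Stat3KO; their part in the level of this receptor was not tested.

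Oprk1, for the kappa opioid receptor that dynorphin binds (ENSMUSG00000025905; chromosome 1, 5588466 to 5606131), had overlapping fractions in both genotypes. Ctrl beads held 17.1, 26.9 and 32.3 CPM, with replicate 1 below every supernatant library of the genotype and replicates 2 and 3 above them, and Ctrl supernatants 20.6, 21.8 and 19.95 CPM. Stat3KO beads held 17.1, 20.2 and 18.25 CPM and their supernatants 20.7, 19.98 and 17.9 CPM. The log2 fold change was 0.29 (SE 0.199, adjusted p = 0.265) in Ctrl and -0.09 (SE 0.133, adjusted p = 0.634) in Stat3KO. Without Ctrl bead-bound replicate 1 the Ctrl value was 0.50 and passed (adjusted p = 0.00565), as it did with replicates 2 and 3 alone (0.49, adjusted p = 0.00468).

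Galr1, for a galanin receptor (ENSMUSG00000024553; chromosome 18, 82392380 to 82406777), also had overlapping fractions. Ctrl beads held 3.75, 3.62 and 4.04 CPM of it and Ctrl supernatants 3.59, 3.65 and 5.38 CPM. Stat3KO beads held 4.12, 3.31 and 3.18 CPM and their supernatants 2.90, 3.86 and 3.48 CPM. The log2 fold change was -0.15 (95% interval -0.625 to 0.332) in Ctrl and 0.04 (-0.441 to 0.518) in Stat3KO, with adjusted p = 0.596 and 0.907.

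**Figure D3:**
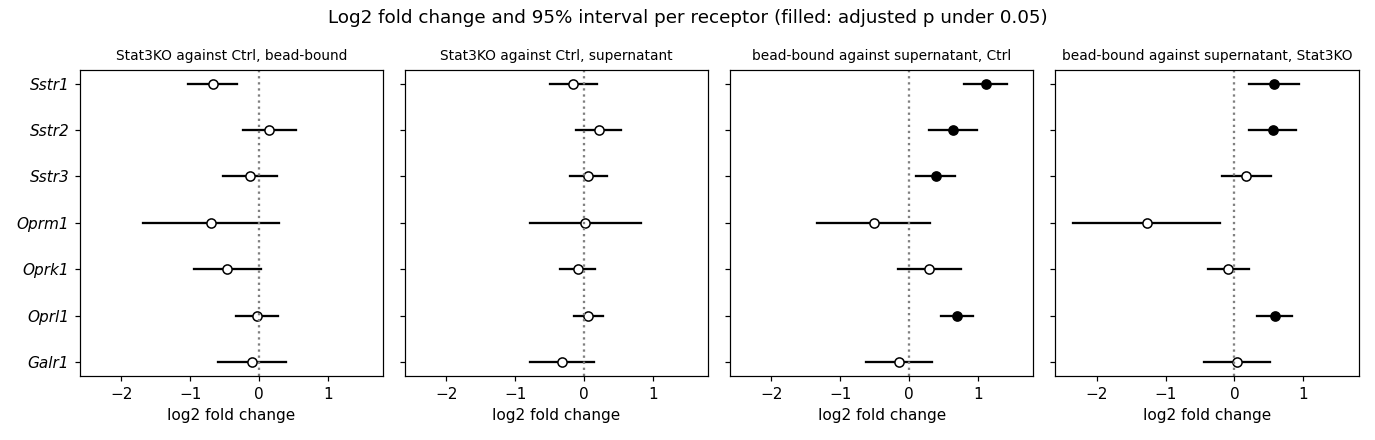
Log2 fold change (horizontal axis) of each receptor in 4 comparisons, with 95% intervals; filled points have an adjusted p under 0.05. Filled points are Sstr1, Sstr2, Sstr3 and Oprl1 between the fractions of Ctrl and Sstr1, Sstr2 and Oprl1 between those of Stat3KO, and there is none between genotypes.

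Stat3KO against Ctrl asks whether these receptors depend on STAT3. By edgeR 0 of the 7 were called in bead-bound RNA, where 0.449% of 17354 tested genes were called, and 0 in supernatant, where 0.0108% of 18547 were. At an unadjusted p under 0.05, as for 713 and 1149 of those genes, there was 1 receptor, Sstr1, in bead-bound RNA and 0 in supernatant. DESeq2 called the same 1 and 0. In bead-bound RNA the groups of 1 receptor, again Sstr1, did not overlap, and it was lower in Stat3KO. The groups did not overlap for 9.37% of tested genes, and lay lower in Stat3KO for 4.27% of them all. In supernatant the groups of 0 receptors and of 12.7% of genes did not overlap. The median log2 fold change of the 7 was -0.126 in bead-bound RNA and 0.0188 in supernatant, beside -0.00846 and -0.00287 over all genes.

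Sstr1 averaged 10.1 ± 0.198 CPM on Stat3KO beads and 16.05 ± 1.47 CPM on Ctrl beads (log2 fold change -0.67, SE 0.160, 95% interval -1.03 to -0.315), with an unadjusted p of 0.00176 and an adjusted p of 0.253 by edgeR. The adjusted p was 0.0475 by DESeq2 and 0.00706 with replicates 2 and 3 alone, where 273 genes were called higher and 894 lower. Over its 13 alternatives the value ranged from -0.73 to -0.60 and the adjusted p from 0.00706 to 1. In supernatant the value was -0.16 (95% interval -0.499 to 0.183, adjusted p = 0.906), with overlapping groups.

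Oprk1 was at 18.5 ± 1.57 against 25.4 ± 7.71 CPM in bead-bound RNA (-0.46, 95% interval -0.947 to 0.0294, adjusted p = 0.999). Replicate 1 of Ctrl lay just under the lowest Stat3KO library, and the other 2 Ctrl libraries lay above all 3 of Stat3KO. With replicates 2 and 3 alone the value was -0.65 (adjusted p = 0.00361). Oprm1 had the widest interval, from -1.69 to 0.289 around -0.70 (adjusted p = 0.999), which excludes neither a fall nor a small rise.

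For the remaining receptors in bead-bound RNA the log2 fold change was 0.15 for Sstr2 (95% interval -0.240 to 0.534), -0.13 for Sstr3 (-0.517 to 0.265), -0.03 for Oprl1 (-0.334 to 0.280) and -0.11 for Galr1 (-0.603 to 0.386), each with adjusted p = 0.999. In supernatant the value was 0.21 for Sstr2, 0.06 for Sstr3, 0.02 for Oprm1, -0.09 for Oprk1, 0.06 for Oprl1 and -0.32 for Galr1, with adjusted p from 0.877 to 0.994. The narrowest interval was that of Oprl1 in supernatant, -0.153 to 0.268.

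The ratio of bead-bound to supernatant level was also formed within each pool, with both libraries of a number taken to come from the same mice. For Sstr1 it was 2.29, 2.28 and 1.91 in Ctrl pools 1, 2 and 3 and 1.75, 1.39 and 1.40 in Stat3KO. For Oprm1 it was 0.816, 0.653 and 0.705 in Ctrl and 0.342, 0.464 and 0.393 in Stat3KO, with replicate 1 the highest in Ctrl and the lowest in Stat3KO. For Sstr3 it was 1.34, 1.30 and 1.25 in Ctrl and 1.15, 1.24 and 1.01 in Stat3KO. In these 3 receptors all Stat3KO pools lay below all Ctrl pools. Among the 18191 genes counted in all 12 libraries, the pools of the genotypes did not overlap in 9.53%, and Stat3KO was the lower in 5.31%.

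The exact permutation test, 2-sided over 20 assignments of the 6 pools, gave p = 0.1 for each of Sstr1, Oprm1 and Sstr3, the smallest p that 3 against 3 allows, and 0.233 after adjustment over the 7 receptors. For Oprl1, Oprk1, Sstr2 and Galr1 the pools overlapped, with exact permutation p = 0.4, 0.4, 0.7 and 0.7. In edgeR's test of the difference of the ratios over all genes, which called 0.204% of 19122, 0 of the 7 passed. DESeq2 called 0 as well, and at an unadjusted p under 0.05 there was 1, Sstr1, beside 405 of all 19122 genes. The log2 difference was -0.52 for Sstr1 (95% interval -0.956 to -0.0857), -0.75 for Oprm1 (-2.12 to 0.626), -0.37 for Oprk1 (-0.922 to 0.178) and -0.19 for Sstr3 (-0.616 to 0.228), each with adjusted p = 1. It was -0.07 for Sstr2, -0.09 for Oprl1 and 0.20 for Galr1.

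**Figure D4:**
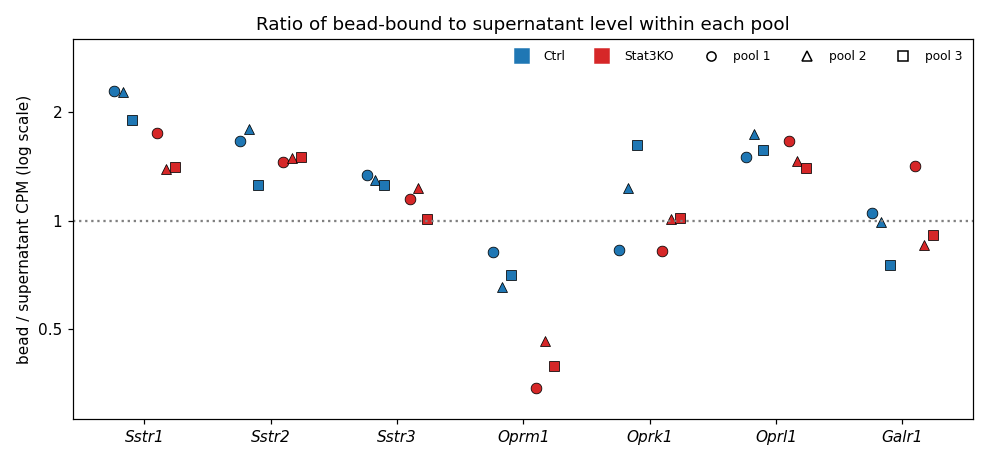
Ratio of bead-bound to supernatant CPM (vertical axis, log scale) within each of the 3 Ctrl and 3 Stat3KO pools; the dotted line is an equal level in both fractions. The Stat3KO pools lie below the Ctrl pools for Sstr1, Sstr3 and Oprm1 and overlap them for the other 4 receptors.

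The 5 other receptors of these families were also in the table, at low levels. Sstr5, another somatostatin receptor gene, was higher on the beads at 3.72 ± 0.551 against 1.48 ± 0.559 CPM in Ctrl (log2 fold change 1.29, adjusted p = 0.00936) and in Stat3KO (1.14, adjusted p = 0.0110). Galr3, a galanin receptor gene, was called higher on the beads in Stat3KO (1.68, adjusted p = 0.0249) from 18 to 19 reads per bead-bound library, a call lost without Stat3KO bead-bound replicate 3 (adjusted p = 0.0652) or Stat3KO supernatant replicate 1, 2 or 3 (0.0609, 0.124 and 0.0523). Galr2, another galanin receptor gene, and Sstr4 did not pass in either genotype, nor did Oprd1, the delta opioid receptor gene that enkephalin acts on, with -0.04 in Ctrl and -0.38 in Stat3KO. Between genotypes 0 of the 5 passed in bead-bound RNA and 0 of the 4 tested in supernatant by edgeR and by DESeq2. At an unadjusted p under 0.05 there was 1 in each, beside 713 of 17354 and 1149 of 18547 genes. Oprd1 measured 2.58, 3.73 and 3.09 CPM on Stat3KO beads and 4.00, 5.55 and 4.82 CPM on Ctrl beads, without overlap (-0.61, adjusted p = 0.999). Groups did not overlap there for 9.37% of all tested genes, and lay lower in Stat3KO for 4.27%.

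Of the 9 ligand genes 8 were tested between the fractions, and 5 were higher on the beads in Ctrl (20.7% of all tested genes were) and 3 in Stat3KO (14.7% of all). None of the 8 was lower by edgeR, by DESeq2 or at an unadjusted p under 0.05. On the log2 scale Pomc, the precursor of beta-endorphin and melanocortins, had the largest difference, 5.38 in Ctrl and 4.15 in Stat3KO, with 521 CPM on Ctrl beads against 12.53 CPM in the supernatant. Gal, which encodes galanin, followed with a log2 fold change of 1.90 and 1.49, and Pdyn, the dynorphin precursor, with 1.63 and 1.11. Sst, which encodes somatostatin, was higher by 0.80 on the log2 scale in Ctrl (adjusted p = 0.0102, and 0.0549 with all 12 libraries in the fit) and stood at 0.24 in Stat3KO (adjusted p = 0.616). Pnoc, the nociceptin precursor, was higher by 0.45 in Ctrl (adjusted p = 0.0357). That call was lost with library totals (0.140), with all 12 libraries (0.113), without Ctrl bead-bound replicate 2 (0.123) and without Ctrl supernatant replicate 1, 2 or 3 (0.0733, 0.0913 and 0.104). In Stat3KO Pnoc stood at 0.44 (adjusted p = 0.182, and 0.0196 with the pool as a block). Penk, the enkephalin precursor, was at -0.24 in Ctrl and 0.05 in Stat3KO, Cort, for the somatostatin-like peptide cortistatin, at -0.47 and -0.89, and Spx, for the galanin receptor ligand spexin, at -0.41 and 0.36, and none of these passed. With replicates 2 and 3 alone Penk was lower on the beads in Ctrl (-0.41, adjusted p = 0.00726), as it was with library totals (-0.39, adjusted p = 0.0463). Galp, for galanin-like peptide, was under the filter.

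Between genotypes 7 ligands were tested in bead-bound RNA, and Pomc fell (log2 fold change -2.03, adjusted p = 0.000166). In supernatant Pomc averaged 7.12 CPM in Stat3KO and 12.53 CPM in Ctrl (-0.82), with an adjusted p of 0.197 by edgeR and 0.00242 by DESeq2. Its groups did not overlap there, as for 12.7% of genes. Its log2 bead to supernatant ratio differed between genotypes by -1.22 (adjusted p = 0.0352), a call lost without any 1 of 8 libraries: Ctrl bead-bound replicate 1 or 2 (0.0616 and 0.135), Ctrl supernatant replicate 1 or 3 (0.133 and 0.137), Stat3KO bead-bound replicate 2 or 3 (0.0808 and 0.0788) and Stat3KO supernatant replicate 1 or 2 (0.141 and 0.114).

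The other 6 ligands did not pass in bead-bound RNA. Their log2 fold changes were -0.60 for Pdyn, which alone of them had an unadjusted p under 0.05, -0.59 for Sst, -0.27 for Gal, -0.19 for Penk, -0.02 for Pnoc and 0.34 for Spx, each with adjusted p = 0.999. Several of these values changed when replicate 1 was left out. With replicates 2 and 3 alone Pdyn was at -1.03 (adjusted p = 1.19e-06), Sst at -0.84 (0.000158), Penk at -0.84 (6.78e-06) and Gal at -0.56 (0.00493), in a fit of 2 libraries against 2. In supernatant that fit gave -0.48 for Pdyn (0.0101), -0.35 for Sst (0.0358), -1.41 for Penk (0.000226) and -0.96 for Pomc (0.00459).

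Penk measured 178, 68.1 and 59.3 CPM on Stat3KO beads and 124, 114 and 111 CPM on Ctrl beads, so that Stat3KO replicate 1 was the highest library and the other 2 the lowest. Without that library its log2 fold change was -0.86 (adjusted p = 0.0275). Leaving out Stat3KO bead-bound replicate 2 or 3 instead gave 0.02 and 0.08. In supernatant it was -0.50 (adjusted p = 0.878), and -1.30 without Stat3KO replicate 1 (adjusted p = 0.0235). The same pool had the highest sum of striatum and cortex markers in its genotype, 439 CPM against 188 and 217 CPM on the beads and 645 CPM against 238 and 335 CPM in the supernatant; their part in the Penk level was not tested. Sst also spread widely, at 199, 112 and 72.35 CPM on Stat3KO beads and 254, 162 and 161.5 CPM on Ctrl beads, with replicate 1 the highest of each.

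Genes that carry the signal of these receptors inside the cell were taken as 5 lists of 46 genes, all of which were tested. In Ctrl 15 of the 46 were higher and 7 lower on the beads, beside 20.7% and 21.2% of all genes, and in Stat3KO 12 were higher and 4 lower, beside 14.7% and 17.3%. With the pool as a block these counts were 23 and 12 in Ctrl and 18 and 12 in Stat3KO. The shares above are without the block, which also raised the calls over all genes in Stat3KO. The blocked counts are therefore not to be set beside those shares. Of the G protein subunit genes 8 of 12 were higher in Ctrl and 7 of 12 in Stat3KO, and 0 lower by edgeR, DESeq2 or at an unadjusted p under 0.05. Without 1 library the number higher fell to as few as 5 in Ctrl and 3 in Stat3KO. Their largest log2 fold changes in Ctrl were those of the gamma subunits Gng3 (1.04) and Gng4 (0.92) and of the alpha subunits Gnaz (0.75) and Gnai2 (0.72).

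Of the 4 genes of G protein-gated potassium channels Kcnj5 passed, at a log2 fold change of 1.24 in Ctrl and 0.73 in Stat3KO. Of 9 adenylyl cyclases 1 was higher and 2 lower in Ctrl and 0 higher and 2 lower in Stat3KO (1 higher by DESeq2 and at an unadjusted p under 0.05), with Adcy1 at -1.30 and -1.20 and Adcy4 at 1.98 in Ctrl. Adcy4 had few reads, 28, 37 and 67 on Ctrl beads and 10, 9 and 17 in Ctrl supernatants. On Stat3KO beads it had 3, 137 and 67 reads. Summed endothelial markers were at 16.1, 143 and 104 CPM in those Stat3KO libraries. Their part in the Adcy4 level was not tested. Of 14 regulators of G protein signalling 3 were higher and 2 lower in each genotype. Among them Rgs2 (1.36 and 1.17) and Rgs19 (0.83 and 0.65) were higher in both and Rgs6 lower (-0.43 and -0.61). Of 7 receptor kinases and arrestins 2 were higher in Ctrl, Arrb2 (0.61) and Grk6 (0.43), and 3 lower, among them Grk5 (-0.56) and Grk3 (-0.34). In Stat3KO 1 of these passed, Arrb2 (0.52). Beside the counts of these lists, 20.7% of all tested genes were higher and 21.2% lower in Ctrl, and 14.7% and 17.3% in Stat3KO. Between genotypes 0 of the 46 passed in either fraction by edgeR or DESeq2, with 1 in bead-bound RNA and 3 in supernatant at an unadjusted p under 0.05. Over all genes 713 of 17354 and 1149 of 18547 had such a p.

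Receptors of other hormone families were set beside these. Of 5 tested melanocortin and neuropeptide Y receptor genes 4 were higher on the beads in Ctrl (median log2 fold change 0.951), with Mc3r at 2.49 and Npy2r at 1.93, and 2 in Stat3KO (median 0.529). Of 8 tested receptor genes for gut and pancreatic hormones 5 were higher and 1 lower in Ctrl (median 0.772), with Calcr at 2.31 and Ghsr at 1.96, and 4 higher and 1 lower in Stat3KO (median 0.566). The shares over all genes were 20.7% higher and 21.2% lower in Ctrl and 14.7% and 17.3% in Stat3KO. The median of the 7 somatostatin, opioid and galanin receptors was 0.381 in Ctrl and 0.171 in Stat3KO. Whether the lists differ was not tested.

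Patterns over the 12 libraries, which share pools and fractions, were compared by Pearson's r of log2 CPM among 15390 genes. The genes named were picked by the highest r, and the same libraries gave r after group means were taken out. These values describe the picks and are no test. The genes most like Sstr1 were Procr (r = 0.964), Tmem200c (0.962) and Tnfrsf11b (0.959), and those most like Oprl1 were Nup62cl (0.983), Supt3 (0.982) and Gucy2c (0.981). Sstr2 was closest to Polr2j (0.977), Emd (0.975) and Shisal2a (0.970), and Sstr3 to Scamp3 (0.951), Abhd16a (0.937) and P4htm (0.936). With group means taken out, r fell to 0.253, 0.261 and 0.384 for the genes most like Sstr1, whose likeness thus lay in the group means. For the other 6 receptors r stayed higher: 0.744 to 0.797 for the genes most like Sstr2, 0.865 to 0.917 for those of Sstr3, 0.661 to 0.802 for those of Oprl1 and 0.734 to 0.829 for those of Galr1. The genes most like Oprm1, Rims1 (0.973), Lin7a (0.959) and Snx27 (0.959), had 0.965, 0.962 and 0.975. Replicate 1 was the lowest Oprm1 library of each group, and its part in these values was not tested. Oprk1 was closest to Tmtc4 (0.917), Slc18b1 (0.904) and Scn9a (0.899), with 0.934, 0.876 and 0.930 after group means were taken out. Galr1 had the weakest likeness, to Pde6g (0.839), Gnat1 (0.814) and B4galnt2 (0.782). Among the 7 themselves r was highest between Oprl1 and Sstr2 (0.910) and between Oprl1 and Sstr1 (0.850), and lowest between Oprm1 and Sstr2 (-0.676).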

How the data were processed

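Poly(A) RNA of both fractions was sequenced from pooled hypothalami (TruSeq mRNA kit, single-end reads of 50 cycles, per the labels' protocols). The deposited file gives unnormalised read counts per gene for 12 libraries, made by the authors. Per the submitters' processing notes STAR 2.5.3a and mm10 were used; how reads were assigned to genes, and with which annotation, is not given in the sources used here. GENCODE M21 (GRCm38) gave names, positions and exon lengths, and matched 52489 of 52638 entries.

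Tests used edgeR 4.0.16 under R 4.3.3, with TMM factors, filterByExpr (minimum count 10, minimum total 15), 2-sided quasi-likelihood F tests and Benjamini-Hochberg adjustment over all tested genes (threshold 0.05). Each comparison was fitted on its own 6 libraries, and the difference of ratios on all 12. SE is the absolute log2 fold change over the square root of F; 95% intervals use the fit's degrees of freedom. CPM used TMM factors over all 12 libraries, and log2 CPM a prior count of 2. The procedure was tested on simulated data. Of 100 genes simulated with a log2 fold change of 1, it recovered 43% for the difference of ratios and 81 to 84% in the other comparisons. Among the genes called, 6.19 to 8.59% were false, at a threshold of 0.05. The simulated libraries were independent, with 200 genes raised by a log2 fold change of 1 or 2. They held no pairing by pool, no replicate that stood apart and no smaller changes. These rates need not hold for the real comparisons.

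Alternatives were DESeq2 1.42.0, its size factors, library totals, no filter, all 12 libraries, replicate blocks, each library left out and, chosen after seeing the data, replicates 2 and 3 alone and all of these for the families' other receptors, ligands and pathway lists. Bead-bound and supernatant libraries of the same number deviated together from their group means (r = 0.196 to 0.367 over genes). The number was therefore taken to pair the fractions, and not the genotypes. Named genes were the 7 receptors, the checks of the labels, the families' other receptors and ligands, up to 4 called genes per pathway list by size, and the 3 genes most like each receptor. Members and lists were chosen with earlier results of these data known.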

Additional observations from a re-analysis of the deposited data

How the results depend on the processing

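Of 490 recomputed receptor values (7 receptors, 5 comparisons), 448 kept their direction and side of the threshold, 16 lost a call, 11 gained one and 15 turned direction, all 15 from values that had not passed. Oprl1 between fractions in both genotypes and Sstr1 in Ctrl held throughout. Oprm1 had the fewest reads of the 7, 14 to 123 per library, and whether depth set its spread was not tested. The cause was not tested for any change below.

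Direction turned for values near 0. With 1 library left out, log2 fold changes between genotypes ran from -0.21 to 0.0029 (Sstr3) and -0.090 to 0.040 (Oprl1) in bead-bound RNA and from -0.29 to 0.34 (Oprm1) in supernatant. Those of Galr1 between fractions ran from -0.26 to 0.098 in Ctrl and from -0.076 to 0.15 in Stat3KO. The difference of ratios ran from -0.16 to 0.012 for Sstr2 and from -0.026 to 0.298 for Galr1. In Stat3KO fractions Galr1 was also -0.068 with library totals and -0.19 with replicates 2 and 3 alone, where Oprk1 was 0.0085.

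Genes called higher and lower between genotypes in bead-bound RNA were 73 and 5. They were 16 lower with DESeq2, 133 and 50 without a filter, 9 lower with all 12 libraries, 273 and 894 with replicates 2 and 3 alone, and 53 to 69 and 3 to 13 with 1 library left out. In supernatant, 0 and 2 became 14 and 29 with DESeq2, 46 and 157 without a filter, 200 and 788 with replicates 2 and 3 alone, and 0 to 6 and 2 to 37 with 1 library left out. With library totals the median of all genes moved by -0.150 in Ctrl and -0.102 in Stat3KO between fractions. The Ctrl calls then went from 3735 higher and 3829 lower (49.4% higher) to 2387 and 4906 (32.7%), and those of Stat3KO from 2669 and 3135 (46.0%) to 1842 and 3716 (33.1%). Leaving out 1 library gave 2215 to 4234 higher and 2642 to 4579 lower in Ctrl, and 1201 to 2921 and 1678 to 3489 in Stat3KO. For the difference of ratios, 37 and 2 became 60 higher with DESeq2, 76 and 21 without a filter, 4 lower with replicates 2 and 3 alone, and 24 to 35 and 0 to 3 with 1 library left out.

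With the pool as a replicate block, 4290 genes were higher and 4709 lower on the beads in Stat3KO, and 4 lower for the difference of ratios; the block changed no receptor call but that of Oprm1 in Stat3KO. Between genotypes the numbers do not pair the pools (same-number correlations -0.0851 to 0.141), and the block gave 3 lower in bead-bound RNA and 2 higher in supernatant.

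With the longest transcript in place of all exons, 3 and 4 receptors changed place in the order per length in Ctrl bead-bound and supernatant RNA, and 2 and 4 in Stat3KO.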
